A study of Homo sapiens with 6 samples.

Results

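The ephrins and Eph receptors described here are 10 genes, of 63677 identifiers listed in the count tables of SW480 cells that overexpressed either POU5F1B or GFP. They were chosen by symbol and comprise 6 receptors (EPHA1, EPHA2, EPHA4, EPHB2, EPHB3 and EPHB4) and 4 ligands (EFNA1, EFNA4, EFNB1 and EFNB2). SW480 is an established line from a human colorectal adenocarcinoma. All cells carried a doxycycline-inducible lentiviral vector, selected with puromycin, for POU5F1B (a retrogene copy of the pluripotency gene POU5F1) or, as the control, for GFP, and all were given 1 µg/mL doxycycline for 72 h. Polyadenylated RNA was sequenced from 3 libraries of each of the 2 groups. The labels do not say whether the replicates came from separate cultures, so p-values measure the spread between these libraries, which may be technical.

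Eph receptors are receptor tyrosine kinases that bind ephrins anchored in the membrane of a neighbouring cell. Ephrin-A ligands are held by a lipid anchor and ephrin-B ligands span the membrane, so that binding can send a forward signal into the receptor-bearing cell and a reverse signal into the ligand-bearing cell, commonly with repulsion or altered adhesion as a result. In the intestinal crypt, EPHB2 and EPHB3 are targets of Wnt signalling and, with B-class ephrins, keep proliferating and differentiated cells in separate positions.

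The library totals ranged from 10767947 to 12787637 counts. POU5F1B had 1 to 6 counts in the GFP libraries and 15027, 11393 and 1458 counts in POU5F1B replicates 1, 2 and 3, so the labels held, but replicate 3 carried far less of the induced transcript. GFP replicate 3 stood apart from its group: the coefficient of variation of a gene, beyond counting error, was 44.27% between it and replicate 1 and 40.91% between it and replicate 2, while between replicates 1 and 2 it was 8.028%. Between POU5F1B replicate 3 and replicates 1 and 2 of that group it was 21.13% and 24.11%, and between the latter 9.841%. The members are therefore also compared by replicate number. The numbers were not taken as pairs, so how close such differences lie to each other depends on which libraries are matched. Of 8 markers of colorectal epithelium, 7 exceeded 1 CPM (counts per 1000000, with library sizes scaled by TMM) in at least 1 library, CDX1 being the exception. Summed over the 8, they reached 6364 to 9581 CPM in GFP and 7908 to 8929 CPM in POU5F1B libraries. Most of that sum was KRT8 and KRT18, so it hides differences in the other markers. EPCAM, named after its values were seen, had 86.8, 89.4 and 519 CPM in GFP replicates 1, 2 and 3. VIL1, named likewise, had 23.1, 14.0 and 211 CPM there. KRT8, KRT18, KRT19, CDH1 and CDX2 varied by a smaller factor between these GFP libraries.

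The 250 bases before the transcription start were compared first, because POU5F1B descends from a factor that binds the octamer ATGCAAAT. The study, however, found POU5F1B mostly in the cytoplasm and enriched in membranes. Its chromatin immunoprecipitation found no significant recruitment of POU5F1B to the genome. The search therefore describes letters and does not test regulation by POU5F1B. Sequences from the RefSeq promoter table were found for 10 of 10 members, and each matched GRCh37, the same build as the hg19 genome used by the study, once on its chromosome and directly before the start of the Ensembl canonical transcript. EPHA4 and EPHB2 had 2 entries each, and only the entry nearest that start was searched. The EPHA4 window lies inside the annotated gene, which extends upstream to 222438922. The octamer was present on either strand in 0 of the 10, against 1.63% of the 35114 promoters in that table. The TCF site ATCAAAG, sought because of the Wnt control of EPHB2 and EPHB3, was likewise present in 0 of the 10 and in 2.26% of all promoters. With shares this low, most sets of 10 promoters would have 0, so neither count sets the members apart. The GC box GGGCGG was found in 10 of 10, compared with 42.6% of all promoters, and a TATA box, TATAAA, in EFNB2 alone, compared with 10.7%. All 10 windows lay above the median GC content of all promoters (58.4 to 84.8% against 58.0%). Whether they held more GC boxes than other windows of such content was not tested. A match is only a run of letters, and its absence from this window says nothing about binding elsewhere. The 4 sequences shown are those of the members whose groups did not overlap (EFNB1, EPHA2 and EPHA4) and of the member that varied most between libraries (EFNB2). They are written 5′ to 3′ on the gene's strand (GRCh37). Capitals mark GC boxes on either strand, which can run into each other, and the TATA box of EFNB2, read here on the opposite strand as TTTATA.
EFNB1, chrX:68048614-68048863, plus strand: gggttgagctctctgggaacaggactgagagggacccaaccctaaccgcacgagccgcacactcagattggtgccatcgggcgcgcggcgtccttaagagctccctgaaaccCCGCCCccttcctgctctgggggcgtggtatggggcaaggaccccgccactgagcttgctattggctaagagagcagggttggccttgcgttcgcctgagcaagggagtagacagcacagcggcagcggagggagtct
EPHA2, chr1:16482565-16482814, minus strand: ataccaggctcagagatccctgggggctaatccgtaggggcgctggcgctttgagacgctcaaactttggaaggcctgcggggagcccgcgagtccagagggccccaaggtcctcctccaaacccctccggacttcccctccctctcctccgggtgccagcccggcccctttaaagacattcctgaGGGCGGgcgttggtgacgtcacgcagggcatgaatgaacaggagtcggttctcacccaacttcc
EPHA4, chr2:222437025-222437274, minus strand: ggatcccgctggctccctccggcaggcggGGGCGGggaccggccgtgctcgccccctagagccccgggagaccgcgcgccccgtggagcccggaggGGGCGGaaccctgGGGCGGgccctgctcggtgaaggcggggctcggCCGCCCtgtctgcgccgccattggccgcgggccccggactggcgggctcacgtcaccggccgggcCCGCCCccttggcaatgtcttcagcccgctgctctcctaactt
EFNB2, chr13:107188011-107188260, minus strand: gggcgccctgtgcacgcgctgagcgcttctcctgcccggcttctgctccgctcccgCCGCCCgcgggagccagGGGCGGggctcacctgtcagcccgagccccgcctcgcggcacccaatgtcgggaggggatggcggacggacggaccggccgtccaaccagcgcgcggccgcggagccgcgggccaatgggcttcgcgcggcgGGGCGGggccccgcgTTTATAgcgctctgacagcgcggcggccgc

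The GC content of these windows was 63.6% for EFNB1, 63.2% for EPHA2, 78.0% for EPHA4 and 78.4% for EFNB2, against a median of 58.0% over all promoters. The highest of the 10 was EPHB2 with 84.8%, and the lowest EFNA4 with 58.4%. EFNB1 and EPHA2 each held 1 GC box and 15 CpG dinucleotides, whereas EFNB2 held 40 CpG dinucleotides. The pair of windows with the fewest CpG dinucleotides thus belonged to the 2 most abundant members, but the other members did not follow that order. EPHB4, the next in abundance, held 29 CpG dinucleotides, whereas EPHA1, among the least abundant, held 17.

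To ask how much of each transcript SW480 cells carried, levels were set on a per-length scale (RPKM, that is CPM per kilobase of the union of annotated exons). EFNB1 and EPHA2 were the most abundant, with means over the 6 libraries of 63.0 and 55.4 RPKM, followed by EPHB4 with 16.1. EFNA4, EPHA4 and EFNA1 lay between 6.01 and 7.05 RPKM, and EPHB2 at 3.27. EPHB3, EPHA1 and EFNB2 were lowest, at 1.62, 1.57 and 1.08 RPKM. The order of these first 2 differed by group. EPHA2 exceeded EFNB1 in the 3 GFP libraries (54.5 to 72.1 against 39.9 to 57.9 RPKM, within each library), and EFNB1 exceeded EPHA2 in the 3 POU5F1B libraries (63.5 to 89.9 against 41.2 to 52.1 RPKM). EPHA2 exceeded EPHB4, and EPHB4 the next member, in 6 of 6 libraries with ranges that did not overlap. The ranges of EFNA4, EPHA4 and EFNA1 overlapped, as did those of EPHB3, EPHA1 and EFNB2. With the length of the canonical transcript in place of all exons, EFNA1 (8.38 RPKM) moved ahead of EPHA4 and EFNA4, and EPHA1 ahead of EPHB3, while the first 3 places and EPHB2 kept theirs.

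EFNB1 made up most of the ephrin transcript in every library. Its share of the RPKM summed over the 4 ligands was 77.7%, 79.7% and 78.7% in GFP replicates 1, 2 and 3 and 85.2%, 85.8% and 79.7% in POU5F1B replicates 1, 2 and 3. The groups met at 79.7%. Among the 6 receptors, EPHA2 took 61.4 to 70.2% and EPHB4 14.7 to 22%. The ligand sum was 74.5, 65.1 and 50.7 RPKM in GFP replicates 1, 2 and 3 and 106, 87.1 and 79.7 RPKM in POU5F1B replicates 1, 2 and 3. The receptor sum was 108, 95 and 77.6 RPKM in the GFP libraries and 81.8, 67.1 and 76.0 RPKM in the POU5F1B libraries. Over these 10 genes, the receptors exceeded the ligands in each GFP library and the ligands the receptors in each POU5F1B library. The ratio of ligand to receptor was 0.654 to 0.689 in GFP and 1.05 to 1.3 in POU5F1B libraries. With canonical lengths it was 0.597 to 0.616 and 0.949 to 1.14, so the groups stayed apart but POU5F1B replicate 3 no longer exceeded 1. Over all 22 listed family genes, an alternative added after the values were seen, the ratio was 0.651 to 0.713 in GFP libraries and 1.15, 1.16 and 0.967 in POU5F1B replicates 1, 2 and 3. On that wider sum the receptors exceeded the ligands in POU5F1B replicate 3, where EPHB6 contributed 11.6 RPKM. The ratio over the members rests mainly on EFNB1, a B-class ligand, and EPHA2, an A-class receptor, and was not tested. It pools the classes, and within each class the same side was higher in every library of both groups. EFNB1 (39.9 to 89.9 RPKM) exceeded EPHB4 (11.4 to 22.2 RPKM), the most abundant B-class receptor among the members. EPHA2 (41.2 to 72.1 RPKM) exceeded EFNA4 (3.95 to 10.3 RPKM), the most abundant A-class ligand among them.

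**Figure D1:**
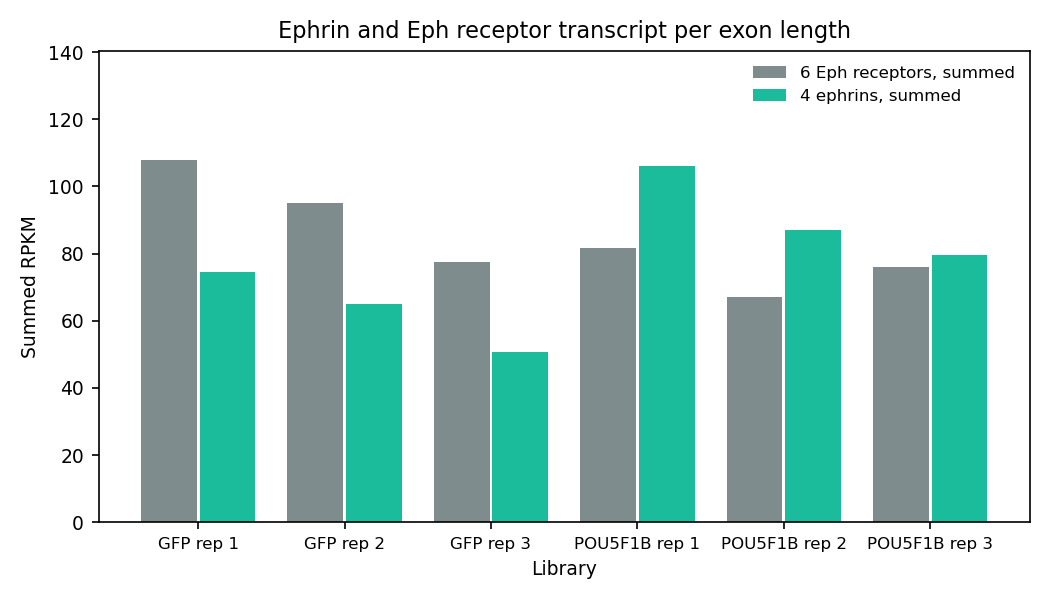
Transcript per exon length summed over the 6 Eph receptors (grey bars) and the 4 ephrins (green bars) in each library, in RPKM; each bar is 1 library. The receptor bar is the taller one in the 3 GFP libraries and the ligand bar in the 3 POU5F1B libraries. Each bar pools the A and B classes.

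The groups were then compared gene by gene, to ask which ephrins and Eph receptors differed with POU5F1B. With limma voom over 14286 tested genes, none of the 10 members passed the threshold of an adjusted p under 0.05 and a fold change above 2 (0 of 10, where 0.0% of all tested genes passed). The lowest adjusted p by limma voom over all tested genes was 0.122, so the induced POU5F1B was not called either. A member that did not pass is therefore not shown to be unchanged. The quasi-likelihood test of edgeR called 0 of the 10 and 0 of all tested genes. DESeq2 called 0 of the 10, against 1.63% of all genes that it gave an adjusted p. At an unadjusted p under 0.05 there were 3 of 10 (EFNB1 and EPHA1 higher, EPHA2 lower), against 11.9% of all tested genes, of which 6.07% were higher. The groups did not overlap for 3 of 10 (EFNB1 higher, EPHA2 and EPHA4 lower), against 19.4%, made up of 10.2% higher and 9.24% lower. All 10 members passed the filter on low counts. The median log2 fold change was 0.09 over the members and -0.02 over all tested genes.

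**Figure D2:**
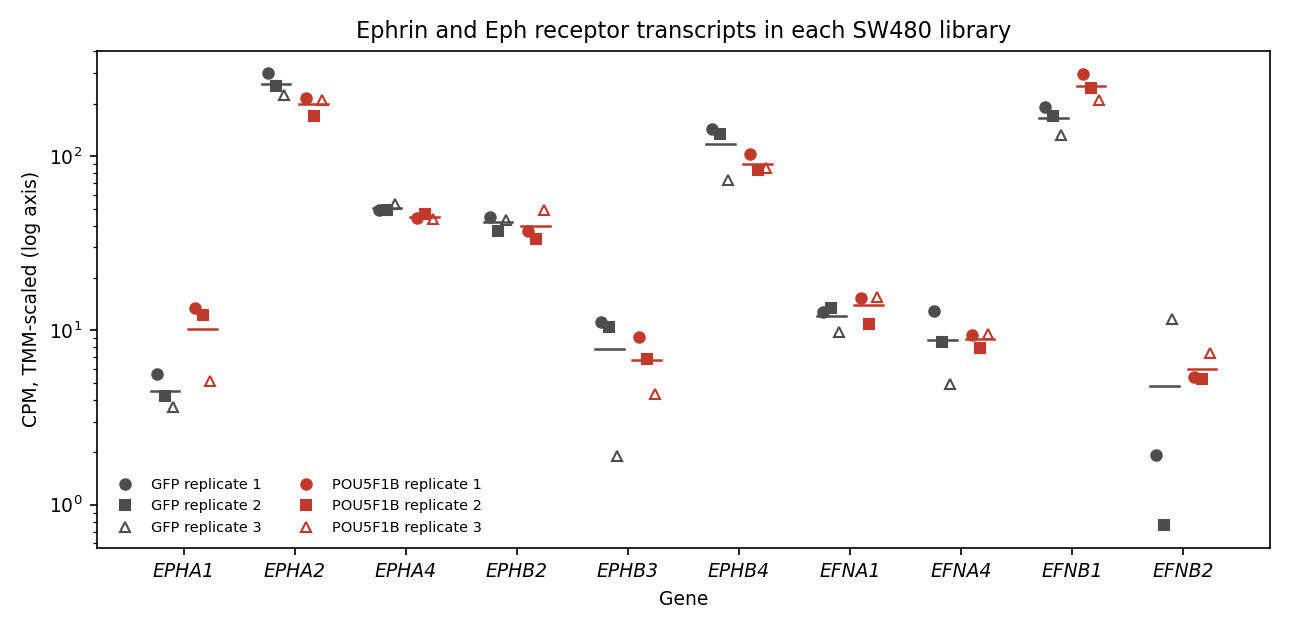
CPM of each member on a log axis, with GFP libraries in grey and POU5F1B libraries in red; circles, squares and open triangles are replicates 1, 2 and 3, and lines are group means (n = 3). EFNB1 is higher in each POU5F1B library than in each GFP library, EPHA2 and EPHA4 are lower, and the open triangle of GFP replicate 3 lies far from its group for EPHB3, EPHB4 and EFNB2.

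Among the ligands, EFNB1 (ENSG00000090776; chromosome X, 68048864 to 68062003, plus strand), which encodes the transmembrane ephrin-B1, had 191, 171 and 132 CPM in GFP replicates 1, 2 and 3. In POU5F1B replicates 1, 2 and 3 it had 297, 247 and 210 CPM. The lowest POU5F1B library thus lay above the highest GFP library. The means were 165 ± 30.3 CPM and 251 ± 43.6 CPM (SD, n = 3), and the log2 fold change was 0.61 ± 0.19 (SE; adjusted p by limma voom = 0.305), with a 95% interval of 0.16 to 1.06. By replicate number the difference was 0.63, 0.53 and 0.67 on the log2 scale, but other matchings of the libraries would spread these values more widely. Its log2 fold change stayed between 0.45 and 0.74 in all 15 alternative settings.

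EFNB2 (ENSG00000125266; chromosome 13, 107142093 to 107188010, minus strand) encodes ephrin-B2, the other B-class ligand among the members. Its transcript was counted 23, 10 and 134 times in GFP replicates 1, 2 and 3, with exact 95% Poisson intervals of 14.6 to 34.5, 4.80 to 18.4 and 112 to 159. POU5F1B replicates 1, 2 and 3 had 69, 57 and 89 counts, with intervals of 53.7 to 87.3, 43.2 to 73.9 and 71.5 to 110. These intervals cover counting error only. GFP replicate 3 was thus the highest of the 6 libraries, and the other 2 GFP libraries were the lowest. The mean level was 4.79 ± 5.98 CPM with GFP and 6.04 ± 1.19 CPM with POU5F1B (SD, n = 3). The log2 fold change of 1.23 ± 0.84 (SE; adjusted p by limma voom = 0.600) did not exceed the spread between replicates. It was 0.34 with edgeR, 0.36 with DESeq2 and 0.33 without GFP replicate 2, so its size depends on the fit. By replicate number it was 1.41, 2.55 and -0.64. Without GFP replicate 3 it was 2.27 and past the threshold (limma voom adjusted p = 0.0197). The annotation used here places a gene on the opposite strand over 1822 of the exon bases of EFNB2, and that gene was not analysed here.

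The A-class ligands did not differ beyond their spread. EFNA1 (ENSG00000169242; chromosome 1, 155100352 to 155107375, plus strand), encoding ephrin-A1, had 12.8, 13.5 and 9.83 CPM in GFP and 15.4, 10.9 and 15.6 CPM in POU5F1B replicates 1, 2 and 3. Its groups overlapped, and the log2 fold change was 0.21 ± 0.23 (SE; adjusted p by limma voom = 0.747), with a 95% interval of -0.33 to 0.76. EFNA4 (ENSG00000243364; chromosome 1, 155036213 to 155042029, plus strand), encoding ephrin-A4, had 12.9, 8.61 and 4.96 CPM in GFP and 9.36, 7.88 and 9.49 CPM in POU5F1B replicates 1, 2 and 3. The GFP libraries held both its highest and its lowest value, and the log2 fold change was 0.11 ± 0.35 (SE; adjusted p by limma voom = 0.931). Counts of EFNA4 are uncertain, because 189 bases of its exons are shared with the EFNA4-EFNA3 readthrough gene on the same strand, which was listed with 0 counts in the 6 libraries.

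Among the A-class receptors, EPHA2 (ENSG00000142627; chromosome 1, 16450832 to 16482564, minus strand), a receptor for ephrin-A1 that is often abundant in carcinomas, had 299, 254 and 226 CPM in GFP replicates 1, 2 and 3. In POU5F1B replicates 1, 2 and 3 it had 216, 171 and 211 CPM. The groups did not overlap, although the gap between GFP replicate 3 and POU5F1B replicate 1 was small. The means were 260 ± 36.6 and 199 ± 24.8 CPM (SD, n = 3), and the log2 fold change was -0.38 ± 0.15 (SE; adjusted p by limma voom = 0.393), with a 95% interval of -0.74 to -0.02. By replicate number it was -0.47, -0.58 and -0.10.

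EPHA4 (ENSG00000116106; chromosome 2, 222282747 to 222438922, minus strand) is a receptor that binds ephrins of both classes. It varied least, with 49.4, 49.4 and 53.3 CPM in GFP and 44.4, 46.5 and 43.8 CPM in POU5F1B replicates 1, 2 and 3. The groups did not overlap, but the difference was small, with a log2 fold change of -0.17 ± 0.12 (SE; adjusted p by limma voom = 0.594) and a 95% interval of -0.45 to 0.10. A change of 2-fold in either direction lies outside that interval.

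EPHA1 (ENSG00000146904; chromosome 7, 143087382 to 143105949, minus strand), an epithelial Eph receptor, had 67, 55 and 42 counts in GFP replicates 1, 2 and 3, or 5.64, 4.19 and 3.65 CPM. In POU5F1B replicates 1, 2 and 3 it had 170, 132 and 62 counts, or 13.4, 12.2 and 5.16 CPM. Replicates 1 and 2 of POU5F1B lay above all GFP libraries, whereas replicate 3, which had the least POU5F1B, lay within the GFP range. The log2 fold change was 1.09 ± 0.43 (SE; adjusted p by limma voom = 0.394), with a 95% interval of 0.06 to 2.12, and by replicate number it was 1.22, 1.51 and 0.48. In the 15 alternative settings it ranged from 0.83 to 1.53. ZYX shares 82 exon bases with EPHA1 on the opposite strand. ZYX had 214 to 425 CPM and a log2 fold change of -0.41, opposite in sign to that of EPHA1, and the part of shared reads in the EPHA1 counts was not tested.

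The B-class receptors of the crypt showed no difference beyond the spread. EPHB2 (ENSG00000133216; chromosome 1, 23037332 to 23247993, plus strand) had 44.9, 37.3 and 43.1 CPM in GFP and 37.4, 33.6 and 49.0 CPM in POU5F1B replicates 1, 2 and 3. POU5F1B libraries were both the lowest and the highest, and the log2 fold change was -0.07 ± 0.18 (SE; adjusted p by limma voom = 0.910), with a 95% interval of -0.50 to 0.36. EPHB3 (ENSG00000182580; chromosome 3, 184279573 to 184300196, plus strand) had 11.2, 10.4 and 1.91 CPM in GFP and 9.20, 6.86 and 4.33 CPM in POU5F1B replicates 1, 2 and 3. In both groups replicate 3 was the lowest, and GFP replicate 3 had 22 counts (exact 95% Poisson interval 13.8 to 33.3). Its log2 fold change of 0.07 ± 0.70 (SE; adjusted p by limma voom = 0.981) had a 95% interval of -1.58 to 1.73, so a 2-fold change either way was not excluded. Without GFP replicate 3 the log2 fold change of EPHB3 turned to -0.74.

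EPHB4 (ENSG00000196411; chromosome 7, 100400187 to 100425145, minus strand), the receptor for ephrin-B2, had 143, 135 and 73.4 CPM in GFP and 103, 83.0 and 85.7 CPM in POU5F1B replicates 1, 2 and 3. GFP replicate 3 was the lowest of all libraries and the other GFP libraries the highest. The log2 fold change was -0.32 ± 0.27 (SE; adjusted p by limma voom = 0.671). Without GFP replicate 3 it was -0.63 (limma voom adjusted p = 0.018), under a 2-fold change. SLC12A9 shares 69 exon bases with EPHB4 on the opposite strand. It had 72.5, 81.3 and 44.3 CPM in GFP and 53.7, 39.2 and 55.4 CPM in POU5F1B replicates 1, 2 and 3, with a log2 fold change of -0.39, of the same sign as that of EPHB4 and with the same low GFP replicate 3. The part of shared reads in the EPHB4 counts was not tested. EPHB4 and EFNB2 thus differed in opposite directions within replicates 1 and 2, and both differences turned in replicate 3.

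**Figure D3:**
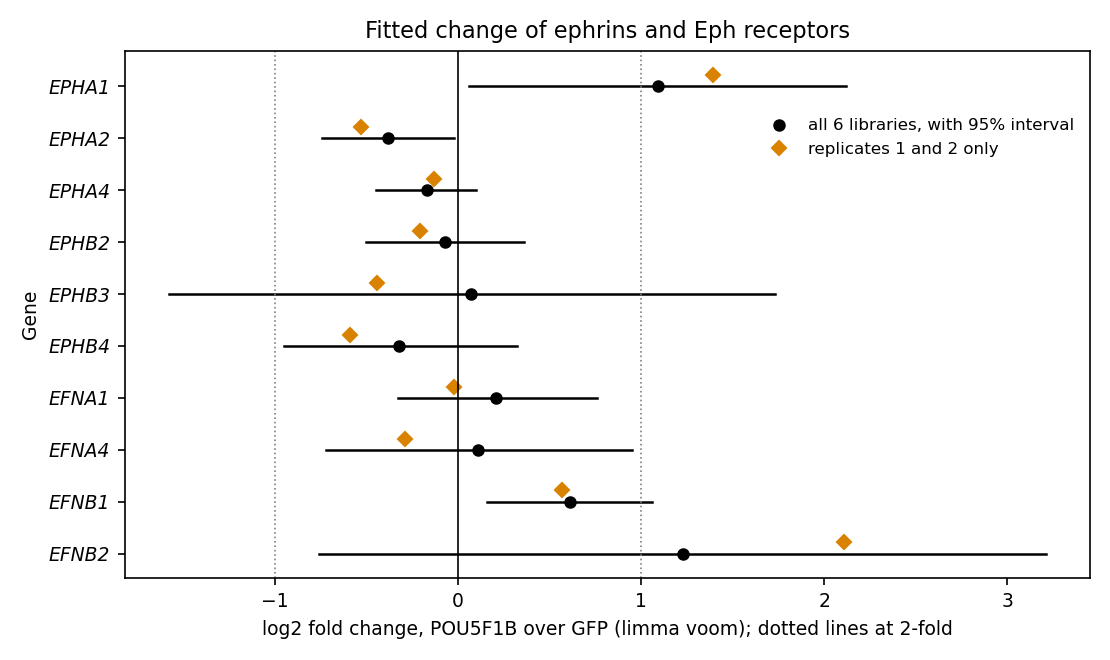
Log2 fold change of POU5F1B over GFP from limma voom for each member, with all 6 libraries (black points, bars are 95% intervals) and with replicates 1 and 2 only (orange diamonds); dotted lines mark a 2-fold change. The bars of EFNB1, EPHA1 and EPHA2 exclude 0, and the diamonds of EPHB3, EFNA1 and EFNA4 lie on the other side of 0 from their points.

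To see how the difference varied, POU5F1B and GFP libraries of the same number were compared across the 3 numbers, which were not taken as pairs. EFNB1 and EPHA1 were higher with POU5F1B, and EPHA2 and EPHA4 lower, in 3 of 3, which makes 4 of 10 members with 1 sign throughout, against 36.7% of all tested genes. EPHB2, EPHB3, EPHB4, EFNA4 and EFNB2 had 1 sign in replicates 1 and 2 and the opposite sign in replicate 3, which is 5 of 10, against 41.5%. EFNA1 was the remaining member, with 0.26, -0.30 and 0.65. The differences in replicate 3 that were opposite were those of EPHB3 (1.11), EFNA4 (0.91), EPHB4 (0.22), EPHB2 (0.18) and EFNB2 (-0.64). Both shares were close to those of all tested genes.

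**Figure D4:**
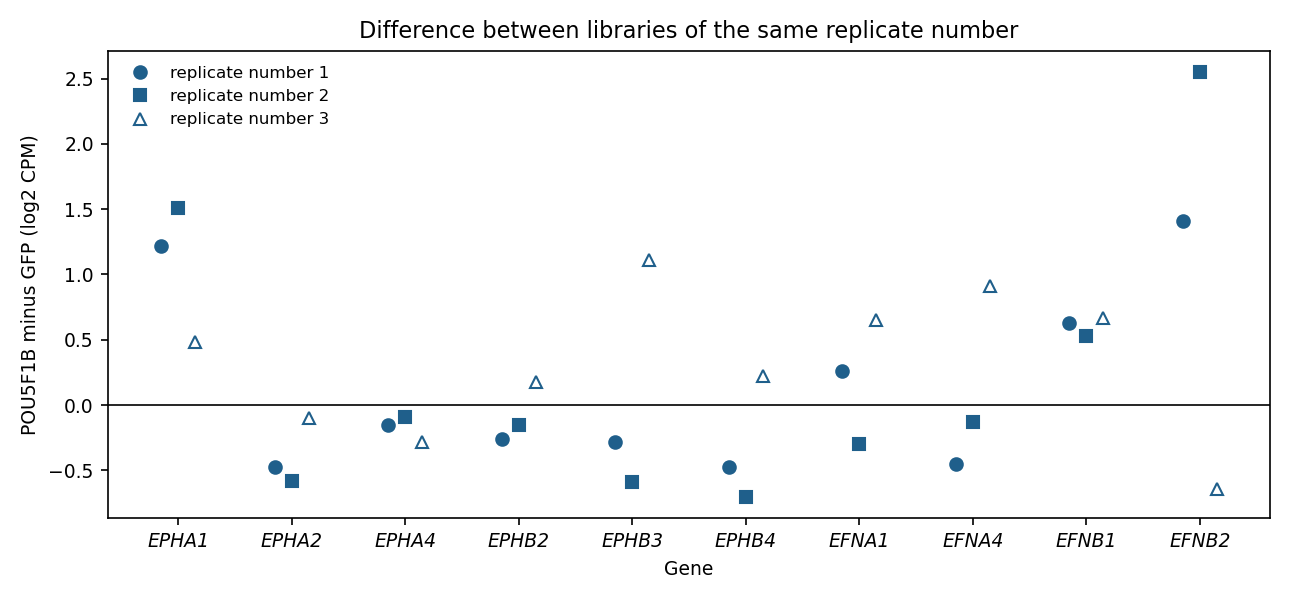
Difference in log2 CPM between the POU5F1B and the GFP library of the same replicate number, for each member; filled circles, filled squares and open triangles are numbers 1, 2 and 3. The 3 marks of EFNB1 lie between 0.53 and 0.67, and the triangle of EFNB2 at -0.64 lies on the other side of 0 from its circle and square. Libraries are matched by label only, and other matchings would give other differences.

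When only replicates 1 and 2 were used, EPHA1 and EFNB2 passed the threshold, which is 2 of 10 members, against 8.36% of all tested genes. EPHA1 rose by 1.39 ± 0.22 (SE; adjusted p by limma voom = 0.000538) and EFNB2 by 2.11 ± 0.39 (SE; adjusted p by limma voom = 0.00148) on the log2 scale. An adjusted p under 0.05, whatever the fold, was reached by 5 of 10, against 29.7%. Besides these 2, they were EFNB1 at 0.57 ± 0.10 (SE; adjusted p by limma voom = 0.00113), EPHA2 at -0.53 ± 0.11 (SE; adjusted p by limma voom = 0.00394) and EPHB4 at -0.59 ± 0.11 (SE; adjusted p by limma voom = 0.0014). With all 6 libraries and sample quality weights, which gave GFP replicate 3 little influence, the same 2 members passed the threshold, against 7.54% of all tested genes, and the same 5 had an adjusted p under 0.05, against 27.8%. Without GFP replicate 3 alone, EFNB2 passed the threshold, against 4.16%, and EFNB2 and EPHB4 had an adjusted p under 0.05, against 12.1%. The values from replicates 1 and 2 rest on 2 libraries per group that varied little, and the libraries left out are those that stood apart.

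Of the 12 Eph family genes outside the members, 7 passed the filter, and 0 passed the threshold with limma voom or edgeR and 1 with DESeq2, against 1.63% of all genes with DESeq2. At an unadjusted p under 0.05 there was 1 of 7, against 11.9%, and the groups did not overlap for 1 of 7, against 19.4%, so neither share is a result about these genes as a group. The gene in each count was EPHB6 (chromosome 7, 142552823 to 142568847, plus strand), which encodes an Eph receptor whose kinase domain is inactive. It had 27.6, 20.6 and 34.6 CPM in GFP replicates 1, 2 and 3 and 78.5, 65.8 and 61.7 CPM in POU5F1B replicates 1, 2 and 3. Each POU5F1B library exceeded each GFP library by a wide margin. The log2 fold change was 1.35 ± 0.21 (SE; adjusted p by limma voom = 0.185), and its rank by p was 23 among all tested genes. By replicate number it was 1.5, 1.67 and 0.83. DESeq2 placed it past the threshold, as did limma voom without GFP replicate 3.

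The other 6 tested family genes had groups that overlapped, with limma voom adjusted p-values of 0.527 to 0.977. EFNB3, encoding the remaining B-class ligand, was the most abundant of them, with 20.5, 15.7 and 5.83 CPM in GFP and 14.1, 14.3 and 10.7 CPM in POU5F1B replicates 1, 2 and 3. EFNA5 had 1.18, 1.75 and 0.348 CPM in GFP and 4.4, 3.15 and 0.999 CPM in POU5F1B replicates 1, 2 and 3. EPHA8 and EFNA2 were highest in the replicate 3 library of both groups, EPHA8 at 6.35 CPM with GFP and 4.25 CPM with POU5F1B, and EFNA2 with 3.05 and 3.66 CPM. EPHA10 and EFNA3 stayed below 8 CPM. Of the untested genes, EPHB1 had 3 to 7 counts per library. EPHA3, EPHA5, EPHA6 and EPHA7 had 0 counts in all 6 libraries, where 3 counts would be the floor, and were not detectable at this depth.

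**Figure D5:**
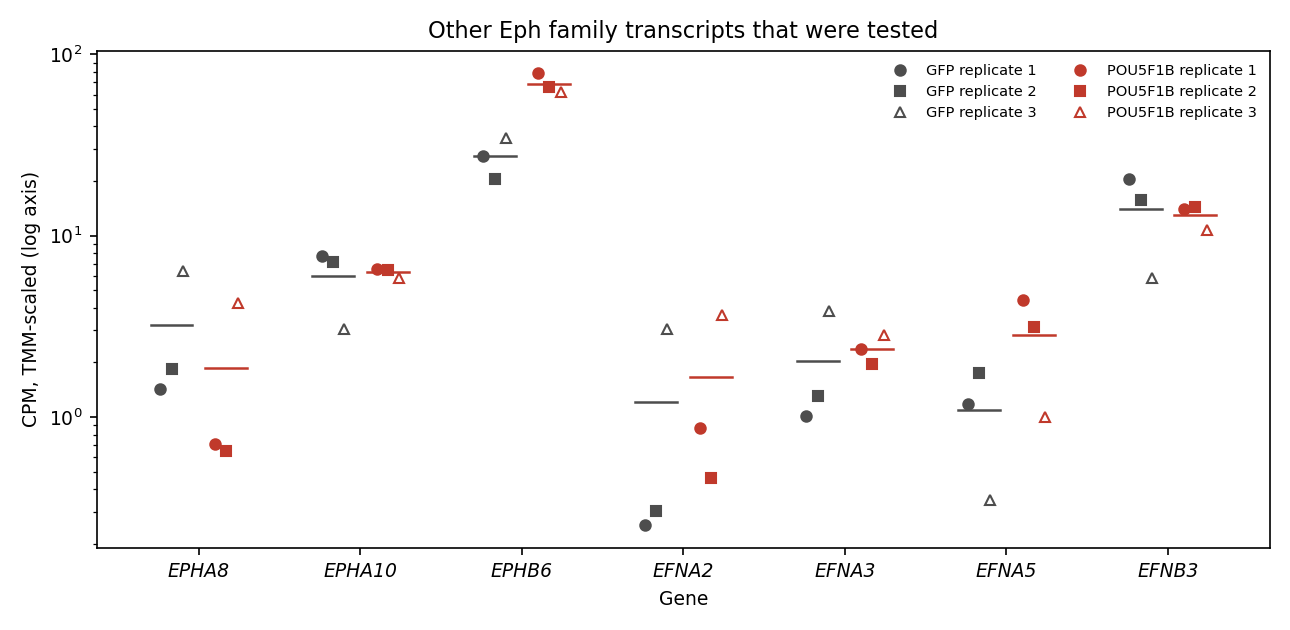
CPM on a log axis of the 7 Eph family genes outside the members that passed the filter, with GFP libraries in grey and POU5F1B libraries in red; circles, squares and open triangles are replicates 1, 2 and 3, and lines are group means (n = 3). EPHB6 separates the groups, whereas EPHA8 and EFNA2 separate the open triangles from the other libraries.

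Genes that act downstream of Eph receptors or ephrins were examined as a list of 38, of which 37 were tested, VAV3 having 0 counts in all libraries. None passed the threshold with limma voom, edgeR or DESeq2, the last of which called 1.63% of all genes, and 2 had an unadjusted p under 0.05, both higher, against 11.9% of all tested genes. RAC1, a small GTPase that drives membrane protrusion, had 410, 379 and 362 CPM in GFP and 484, 496 and 431 CPM in POU5F1B replicates 1, 2 and 3, and a log2 fold change of 0.29 ± 0.10 (SE; adjusted p by limma voom = 0.353). TIAM1, an exchange factor that activates RAC1 and can act downstream of Eph receptors, had 50.5, 49.6 and 26.5 CPM in GFP and 96.0, 100 and 51.7 CPM in POU5F1B replicates 1, 2 and 3. By replicate number its difference was 0.93, 1.01 and 0.96, which depends on how the libraries are matched. POU5F1B replicate 3 only just exceeded GFP replicate 1 (log2 fold change 0.96 ± 0.35 SE; adjusted p by limma voom = 0.357). ACP1, a phosphatase that acts on Eph receptors, had 113, 108 and 166 CPM in GFP and 164, 170 and 167 CPM in POU5F1B replicates 1, 2 and 3, so that GFP replicate 3 lay within the POU5F1B range (log2 fold change 0.40 ± 0.18 SE; adjusted p by limma voom = 0.429). The groups did not overlap for 5 of 37 genes, against 19.4% of all tested genes: RAC1, TIAM1, CRKL and ADAM17 were higher and CDC42 lower, the last 3 being named after their values were seen.

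By class, the 6 SRC-family, ABL and focal adhesion kinases had a median log2 fold change of -0.18, the 9 adaptors 0.09 and the 7 genes for cleavage, dephosphorylation and removal of receptors 0.16. Each of these medians lay within 0.2 of 0. ROCK1 and ROCK2, kinases that act on myosin, were named after their values were seen, since 1 library set them apart. GFP replicate 3 had 1748 counts of ROCK1 and the other libraries 223 to 563. For ROCK2 it had 2301 counts, against 393 to 882. With replicates 1 and 2 only, 9 of 37 had an adjusted p under 0.05, 6 higher and 3 lower, which compares with 29.7% of all tested genes, and 0 exceeded 2-fold.

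Markers of other cell types differed between the same libraries. The summed level of 6 fibroblast markers was 172, 148 and 27.4 CPM in GFP and 15.5, 13.4 and 22.6 CPM in POU5F1B replicates 1, 2 and 3, with 4 of 6 above 1 CPM in some library and COL3A1 at 0 in all. Most of that sum was COL1A1 (5.56 to 142 CPM) and PDGFRB (7.22 to 28.7 CPM), while DCN had at most 3 counts. The 4 endothelial markers that could be matched summed to 1.3 to 6.53 CPM, nearly all of it VWF, and the 5 immune markers to 1.52 to 5 CPM. Of the 7 epithelial markers that were tested, 0 passed the threshold with limma voom, and their log2 fold changes ran from -0.32 (CDX2) to 1.71 (CDH1). CDH1 was the only 1 of the 7 with an unadjusted p under 0.05 and with groups that did not overlap. EPCAM, KRT8, KRT19 and VIL1 were higher with POU5F1B in replicates 1 and 2 and lower in replicate 3, and CDX2 the reverse. The markers named singly here were picked from their lists after their values were seen. The part of these markers in the differences of EPHA1, EFNB1 and EPHA2 was not tested. In bulk RNA, fewer cells with a transcript and less transcript per cell cannot be told apart.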

How the data were processed

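The study analysed RNA sequencing of 3 GFP and 3 POU5F1B libraries. The authors deposited 1 table of raw counts per library, by Ensembl identifier, made from reads mapped with hisat2 to hg19 and assigned with featureCounts to an annotation of genes and transposable elements, with uniquely mapped reads only. The library kit kept strand, but the strand setting and annotation release are not given in the sources used here, so overlapping genes are uncertain. Symbols were matched for 87.4% of identifiers. Groups and replicate numbers came from the sample titles.

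From these counts, filterByExpr of edgeR 4.0.16 kept 14286 genes, with TMM scaling. The main test followed the study's methods: limma 3.58.1 voom in R 4.3.3, two-sided and without a block, its p-values adjusted by Benjamini-Hochberg across these genes. A gene passed at an adjusted p under 0.05 and a fold above 2. Here 0 of the tested genes passed, whereas the study reported enough upregulated genes in SW480 for a gene term analysis. The reason for that difference was not tested. Log2 CPM for differences by replicate number used a prior count of 2. Between 10767947 and 12787637 counts per library set the precision. No 2 libraries of a group agreed within sampling noise (chi-square per degree of freedom at least 4.213). Exon lengths and positions came from GENCODE on GRCh37; canonical transcript length was an alternative chosen after seeing the data. The alternatives were edgeR, DESeq2 1.42.0, quality weights, other scalings and filters, a replicate block, replicates 1 and 2 only, and leaving out each library. The tests were also run on simulated counts in which no library was made to stand apart, unlike GFP replicate 3 here. That run therefore does not show how they perform with such a library.

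The members, lists, named genes and settings were chosen with earlier results of these data known. Named were the members, tested family genes, the 3 signalling genes with the smallest p, and the 3 genes most alike in profile to the most abundant receptor and ligand. Others are said to be named after their values were seen. Protein sequences were not used here.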

Additional observations from a re-analysis of the deposited data

How the results depend on the processing

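The count of members past the threshold stayed at 0 with edgeR, DESeq2, DESeq2 size factors, total counts, both filters and the replicate block. It was 2 with sample quality weights (EPHA1 1.31, EFNB2 2.26) and 2 with replicates 1 and 2 only (EPHA1 1.39, EFNB2 2.11), and lay between 0 and 1 when any 1 library was left out, the 1 being EFNB2 (2.27) without GFP replicate 3. GFP replicate 3 had a quality weight of 0.111 and the other libraries 0.575 to 2.79. For the other family genes the count was 1 with DESeq2 and quality weights, 3 with replicates 1 and 2 only, and 0 to 1 with 1 library left out; for the signalling genes it was 0 in all settings. Over all tested genes it was 232 with DESeq2, 1077 with quality weights, 4 with no filter, 1 with the replicate block, 1194 with replicates 1 and 2 only and 0 to 595 with 1 library left out, highest without GFP replicate 3. EPHB3 changed sign with edgeR (-0.21), DESeq2 (-0.21), quality weights (-0.41), the replicate block (-0.08) and the fit on replicates 1 and 2 (-0.44), and leaving out 1 library gave -0.74 to 0.5. EFNA4 turned negative under quality weights (-0.13) and on replicates 1 and 2 (-0.29), and leaving out 1 library gave -0.24 to 0.43. EFNA1 changed sign with replicates 1 and 2 only (-0.02). Leaving out 1 library gave -0.22 to 0.04 for EPHB2, positive without POU5F1B replicate 2, and 0.33 to 2.27 for EFNB2. EFNB1, EPHA1, EPHA2, EPHA4 and EPHB4 kept their direction in all 15 settings. All settings refit these same libraries, so a kept direction adds little for EFNB1, EPHA2 and EPHA4, whose groups did not overlap. The cause of these shifts was not tested, beyond the libraries each setting leaves out or weights down. Same-numbered libraries deviated together with correlations over genes of 0.242, 0.088 and 0.165 for numbers 1, 2 and 3, and GFP replicate 2 correlated more with POU5F1B replicate 1 (0.25) than with its own number, so the numbers were not taken as pairs; the replicate block changed the call of no member, family or signalling gene. Depth limits EFNB2, EPHB3, EPHA1, EFNA1 and EFNA4 most, which had fewer than 200 counts in every library.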

Other observations

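The genes whose profile over the 6 libraries was most like that of EPHA2, the most abundant receptor, were KLC1, KCTD1 and MIF4GD-DT, with root mean square differences in centred log2 CPM of 0.0379, 0.0444 and 0.0492, where the median over all other tested genes was 0.384. For EFNB1, the most abundant ligand, they were CALML3-AS1, HLA-E and CSPG5, at 0.0432, 0.0711 and 0.0722, against a median of 0.475. These likenesses rest on 6 libraries that share the same depth and group structure and are a description of these libraries.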
